A study of Oryctolagus cuniculus with 15 samples.

Results

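The genes described here are 10 genes of mitosis, taken by name from the 23428 genes in the count table of bulk RNA-seq from cultured rabbit corneal keratocytes, the resident cells of the corneal stroma. They are MKI67, CDK1, the cyclin genes CCNA2, CCNB1 and CCNB2, the checkpoint kinase genes BUB1, BUB1B and TTK, and CDC20 and ESPL1, which act at the start of anaphase. All 10 were found in the table by symbol. They are grouped by function, and earlier results of these data were known. The study had already reported all of them but TTK as lower on fibrillar collagen than on a collagen coat. Counts of calls among them therefore describe these genes and are not an independent test.

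Normal rabbit keratocytes from New Zealand white rabbits, at first passage, were cultured for 6 days in serum-free medium, with 3 libraries for each of 5 conditions. In 2DC, cells lay on a collagen-coated dish that was incubated with digestion medium before lysis, and in 2DC_L they were lysed in the coated dish without that incubation. In 2DF, cells lay on top of a fibrillar collagen matrix, and in 3DF (100000 cells per matrix) and 3DF_50 (50000 cells per matrix) they were embedded within it. The 3 fibrillar conditions were all released from the collagen with digestion medium before lysis. Every library pools several dishes or matrices, and the 3 libraries of a condition come from separate experiments. Cultures pooled in this way carry no record of single cells, so fewer dividing cells and less of a transcript per cell cannot be told apart. The keratocyte markers found in the table (6 of 7) summed to between 18400 and 31600 FPKM in every library, where FPKM is the number of fragments per kilobase of gene, scaled to the size of the library.

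A cell enters mitosis when CDK1, a kinase that is inactive on its own, is joined by an A- or B-type cyclin. While any chromosome is not yet attached to the spindle, the kinases BUB1 and TTK (also known as MPS1) and the related protein BUBR1, encoded by BUB1B, hold back CDC20. Once freed, CDC20 activates the anaphase-promoting complex, a ubiquitin ligase that marks cyclin B and the inhibitor of separase for destruction. Separase, the product of ESPL1, then cuts the cohesin that holds sister chromatids together. MKI67 encodes Ki-67, a protein that coats mitotic chromosomes and is widely used as a marker of proliferating cells. Most of these genes are transcribed mainly in G2 and M phase, and keratocytes of the uninjured cornea rarely divide.

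All 10 genes were lower on fibrillar collagen than on coated collagen. In a model of the 15 libraries that contrasted the mean of 2DF, 3DF and 3DF_50 with the mean of 2DC and 2DC_L, 10 of 10 were called lower, where a call required both a change of 1 or more on the log2 scale and an adjusted p of 0.05 or less in edgeR. In the same contrast 5.85% of the 14036 genes tested were called lower. The median log2 fold change of the 10 genes was -3.85, against 0.0184 over all genes tested. Each of the 15 fits that left out 1 library still called all 10.

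The size of the change differed widely between the genes. Of its mean CPM (reads per library scaled to a common library size) on coated collagen, MKI67 kept 0.713% on fibrillar collagen and CDK1 0.767%. TTK kept 2.98%, CCNB1 4.58% and BUB1B 5.26%. In CCNB2, CDC20 and BUB1 the remaining shares were 9.56%, 13.2% and 18.4%. At the other end, ESPL1 kept 33.8% and CCNA2 39.6%. Reads of MKI67 and CDK1 were thus nearly absent on fibrillar collagen, while CCNA2 and ESPL1 had at least 49 and 42 reads in every fibrillar library. With the first part of the library name as a block over all 5 conditions, MKI67 and CDK1 had an adjusted p of 1 and the other 8 genes were called. The fitted changes did not shrink there, at -9.17 for MKI67 and -7.91 for CDK1 beside -8.53 and -7.12 without the block, and for genes so near 0 these are not bounds.

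**Figure D1:**
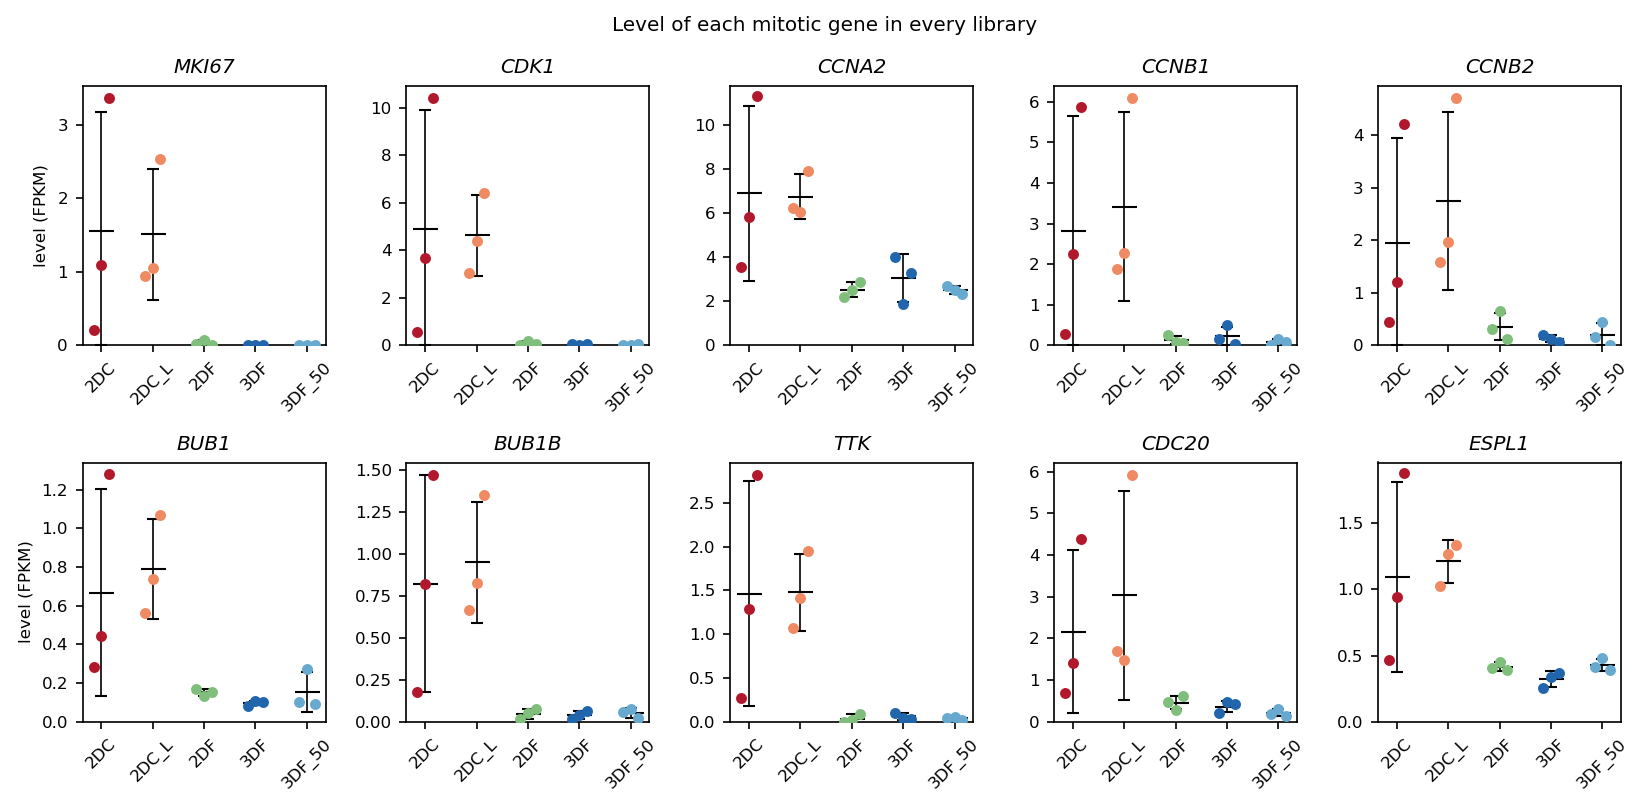
Level of each of the 10 genes in FPKM (vertical axis, a separate linear scale for each gene) in the 15 libraries of the 5 conditions. Points are libraries in the order of their replicate numbers, the long bar is the mean and the error bar the SD (n = 3), drawn no lower than 0. The fibrillar libraries lie at the bottom of each panel, with 2DC replicate 1 the lowest coated library for 10 of 10 genes.

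MKI67 (oryCun2 unplaced sequence Un0028, 2308857 to 2336129, minus strand) had 0.199, 1.09 and 3.36 FPKM in 2DC replicates 1, 2 and 3. In 2DC_L it had 0.934, 1.05 and 2.54 FPKM. On fibrillar collagen 2, 12 and 1 reads were counted in 2DF, 1, 1 and 0 in 3DF, and none in the 3 libraries of 3DF_50. Every coated library lay above every fibrillar one, the closest being 2DC replicate 1 (56 reads) and 2DF replicate 2. The ratio of the summed counts, scaled by the summed library sizes, was 460-fold lower in 3DF than in 2DC (95% interval 127 to 3810) and 435-fold lower than in 2DC_L (120 to 3600), where these intervals are exact and cover counting error only. With no read in 3DF_50, the gene was at least 252-fold lower there than in 2DC and at least 238-fold lower than in 2DC_L. These bounds use summed counts with 3 counts over the condition as the limit, and they too cover counting error only. The 2DC libraries themselves differed up to 16.8-fold in CPM. In 2DF the log2 fold changes were -5.66 against 2DC (SE 1.16, edgeR adjusted p = 0.0132) and -5.61 against 2DC_L (SE 0.63, edgeR adjusted p = 0.000274).

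CDK1 (chromosome 18, 25387628 to 25403308, minus strand) encodes the kinase that the mitotic cyclins activate. It was counted 21, 105 and 299 times in 2DC and 114, 161 and 138 times in 2DC_L. Mean levels were 4.89 ± 5.05 FPKM in 2DC and 4.62 ± 1.70 FPKM in 2DC_L (SD, n = 3). The fibrillar libraries held 0, 4 and 1 reads in 2DF, 1, 0 and 1 in 3DF, and 0, 0 and 1 in 3DF_50, so that every fibrillar library lay below every coated one. By the same scaled ratio of summed counts the gene was 196-fold lower in 3DF than in 2DC (95% interval 54.0 to 1620) and 322-fold lower in 3DF_50 (57.5 to 12700). Against 2DC_L the ratios were 190-fold (52.3 to 1570) and 312-fold (55.7 to 12400). In 2DF, with 5 reads in all, the log2 fold changes were -5.95 against 2DC (SE 1.25, edgeR adjusted p = 0.0151) and -5.87 against 2DC_L (SE 0.60, edgeR adjusted p = 0.000152).

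CCNA2 (chromosome 15, 97274110 to 97279792, minus strand) encodes cyclin A2, which serves in S phase as well as in the approach to mitosis. Per length it was the most abundant of the 10 genes in each of the 5 conditions. Its levels were 3.55, 5.84 and 11.3 FPKM in 2DC, 6.25, 6.05 and 7.91 in 2DC_L, 2.19, 2.49 and 2.88 in 2DF, 4.0, 1.87 and 3.26 in 3DF, and 2.67, 2.49 and 2.31 in 3DF_50. Only 3DF replicate 1 reached the coated range, above 2DC replicate 1. The pooled log2 fold change, -1.34 (SE 0.21, edgeR adjusted p = 9.73e-05), was the smallest of the 10. Against 2DC alone it was not called in 3DF, at -1.18 (SE 0.43, edgeR adjusted p = 0.108), and was called in 2DF at -1.44 (SE 0.39, edgeR adjusted p = 0.0403). The neighbouring genes EXOSC9, 522 bases away on the opposite strand, and BBS7, 949 bases away on the same strand, had 9.38 ± 1.43 and 5.60 ± 1.17 FPKM on fibrillar collagen, beside 7.63 ± 0.734 and 5.22 ± 0.623 FPKM on coated collagen.

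The B-type cyclin genes CCNB1 and CCNB2 had pooled changes of -4.50 and -3.45 on the log2 scale (SE 0.62 and 0.54). CCNB1 (chromosome 11, 85364692 to 85371347, plus strand) was counted 11, 68 and 178 times in 2DC and 74, 88 and 138 times in 2DC_L, against 0 to 15 times in the 9 fibrillar libraries. The 15 reads of 3DF replicate 2 exceeded those of 2DC replicate 1 once scaled to CPM. Between 3DF and 2DC its change of -3.61 on the log2 scale (SE 1.08) missed the threshold with an edgeR adjusted p of 0.0572, and in 2DF and 3DF_50 against 2DC the filter on low counts left the gene out. Against 2DC_L it was called in each fibrillar condition, with log2 fold changes of -3.87 in 3DF, -4.68 in 2DF and -5.33 in 3DF_50 (edgeR adjusted p = 0.00375, 0.00106 and 0.000319).

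CCNB2 (chromosome 17, 13281661 to 13307020, minus strand) encodes the cyclin B that is found mainly at the Golgi apparatus. It had 1.95 ± 2.00 FPKM in 2DC and 2.75 ± 1.70 in 2DC_L, beside 0.353 ± 0.266 in 2DF, 0.123 ± 0.0601 in 3DF and 0.194 ± 0.218 in 3DF_50 (SD, n = 3). Its 17 reads in 2DF replicate 2 overlapped the 2DC range, and the change of -2.43 from 2DC to 2DF was not called (SE 0.86, edgeR adjusted p = 0.0922). The 3DF libraries all lay below the 2DC libraries, and the gene was called there at -3.91 (SE 0.90, edgeR adjusted p = 0.0211).

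The 3 genes of the spindle checkpoint differed among themselves. TTK (chromosome 12, 66934801 to 66975987, plus strand), whose kinase starts checkpoint signalling at unattached kinetochores, fell the furthest of the 3. It was counted 34, 124 and 273 times in 2DC, 135, 174 and 141 times in 2DC_L, and between 0 and 11 times in the fibrillar libraries. The log2 fold changes against 2DC were -4.58 in 3DF (SE 0.89, edgeR adjusted p = 0.0106), -5.32 in 2DF (SE 1.07, edgeR adjusted p = 0.0125) and -5.24 in 3DF_50 (SE 0.94, edgeR adjusted p = 0.00261). No fibrillar library overlapped the coated ones.

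BUB1B (chromosome 17, 31783926 to 31924833, minus strand) was counted 36, 125 and 226 times in 2DC, 133, 162 and 155 times in 2DC_L, and 2 to 10 times in each fibrillar library. Its log2 fold changes against 2DC were -4.38 in 3DF, -4.10 in 2DF and -3.96 in 3DF_50 (SE 0.83, 0.82 and 0.80), all called. Its annotated span of 140908 bases holds other gene models. LOC100349173, on the same strand, had 38.8 ± 5.56 FPKM on coated and 29.5 ± 6.71 FPKM on fibrillar collagen. LOC103351133, also on the same strand, had 0.95 ± 0.144 and 0.642 ± 0.13 FPKM, so neither fell as far as BUB1B. LOC103351134, on the opposite strand, had at most 6 reads in any library. Reads in the overlaps could not be told apart here.

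BUB1 (chromosome 2, 95738096 to 95791668, minus strand) had the smallest fall of the 3. Its levels were 0.280, 0.441 and 1.28 FPKM in 2DC and 0.560, 0.740 and 1.07 in 2DC_L. Fibrillar libraries ranged from 0.0822 FPKM in 3DF replicate 1 to 0.270 in 3DF_50 replicate 2, just below 2DC replicate 1. The log2 fold changes against 2DC were -2.78 in 3DF (SE 0.62, edgeR adjusted p = 0.0187), -2.11 in 2DF (SE 0.60, edgeR adjusted p = 0.0477) and -2.10 in 3DF_50 (SE 0.66, edgeR adjusted p = 0.0343).

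CDC20 (chromosome 13, 123296019 to 123309784, minus strand), the coactivator that the checkpoint restrains, had 0.680, 1.41 and 4.39 FPKM in 2DC and 1.69, 1.49 and 5.93 FPKM in 2DC_L. The fibrillar libraries ran from 0.141 FPKM in 3DF_50 replicate 3 to 0.606 in 2DF replicate 3, without overlap. Relative to 2DC the change was -2.59 in 3DF (SE 0.70, edgeR adjusted p = 0.0388), which was called, and -2.22 in 2DF (SE 0.67, edgeR adjusted p = 0.0586), which was not. ELOVL1, a fatty acid elongase gene 150 bases away on the opposite strand, had 30.4 ± 3.93 FPKM on coated and 17.0 ± 1.95 FPKM on fibrillar collagen.

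ESPL1 (chromosome 4, 37100607 to 37123345, plus strand), the separase gene, spanned the narrowest relative range of the 10 within fibrillar collagen, from 0.253 to 0.481 FPKM. It was counted between 42 and 59 times in each of the 9 fibrillar libraries, and 91, 137 and 275 times in 2DC and 197, 237 and 147 times in 2DC_L. In CPM, 3DF_50 replicate 2 lay slightly above 2DC replicate 1, and no other fibrillar library did. Relative to 2DC it was called in 3DF at -1.78 (SE 0.47, edgeR adjusted p = 0.0360) and not called in 2DF at -1.38 (SE 0.44, edgeR adjusted p = 0.0703).

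**Figure D2:**
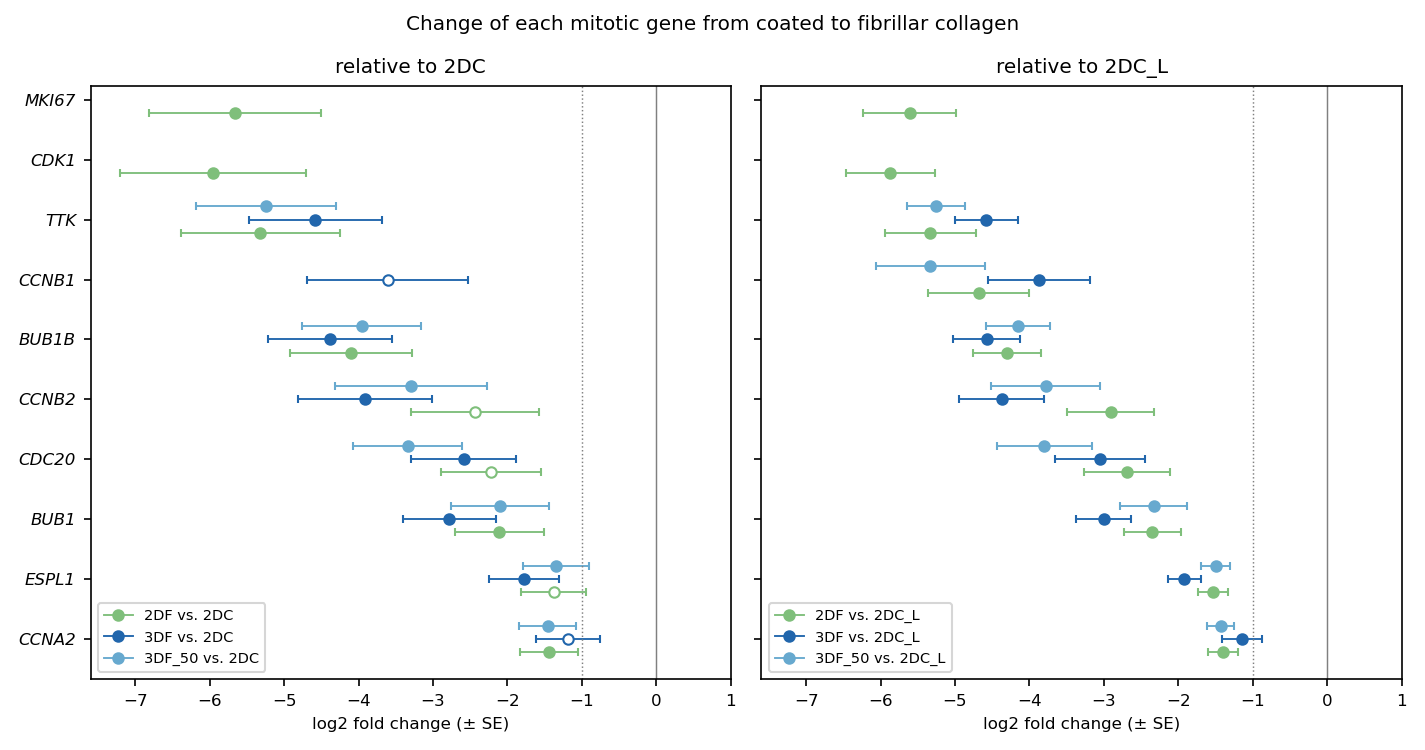
Log2 fold change (horizontal axis, ± SE) of each of the 10 genes in 2DF, 3DF and 3DF_50 relative to 2DC (left) and 2DC_L (right). Filled points were called, open points were not, the dotted line marks -1, and pairs that were not tested or that had 3 or fewer reads in the fibrillar condition are left out. All points lie below 0, from -1.14 for CCNA2 in 3DF vs. 2DC_L to -5.95 for CDK1 in 2DF vs. 2DC, and the error bars are wider against 2DC than against 2DC_L for each gene.

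Taken comparison by comparison, 3DF vs. 2DC called 8 of the 10 genes lower (4.32% of all genes tested were called lower), with CCNA2 and CCNB1 short of the threshold. The count was 4 without 3DF replicate 2 or without 3DF replicate 3. In 2DF vs. 2DC, 6 of the 9 genes tested were called lower (2.93% of all genes), namely MKI67, CDK1, CCNA2, BUB1, BUB1B and TTK. That count depended on single libraries, being 0 without 2DF replicate 1, 1 without 2DF replicate 2, 2 without 2DF replicate 3 and 10 without 2DC replicate 1. It was also 0 with the library prefix as a block, as it was in 2DF vs. 2DC_L, although the fitted changes were mostly no smaller under the block. In 2DF vs. 2DC that of BUB1B was -6.36 beside -4.10, and that of CCNA2 -1.24 beside -1.44, and in 2DF vs. 2DC_L all 10 were larger in size under the block. For 2DF these fitted changes rest on 2DF replicate 1, the only 2DF library whose prefix another condition has. In 3DF_50 vs. 2DC all 9 genes tested were called lower (7.33% of all genes), and 5 without 2DC replicate 3.

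Against 2DC_L all 10 genes were called lower in each of 3DF, 2DF and 3DF_50, where 5.98%, 4.46% and 8.47% of all genes were called lower. The 3 comparisons share the 2DC_L libraries. No library of any fibrillar condition reached a 2DC_L library for any of the 10 genes, a separation that 21.5%, 19.7% and 26.6% of all genes tested showed. Against 2DC the groups were separate for 8, 9 and 9 of the 10 genes in 3DF, 2DF and 3DF_50, with 18.4%, 17.2% and 25.3% over all genes. Over all 6 coated and 9 fibrillar libraries, 6 of the 10 genes had every coated library above every fibrillar one (6.77% of all genes), the exceptions being CCNA2, CCNB1, CCNB2 and ESPL1. Each exception involved 2DC replicate 1, and without it the groups were separate for all 10 genes (8.13% of all genes).

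Within fibrillar collagen, no change in the 10 genes was called between culture on top of the matrix and culture inside it, nor between the cell densities. The filter left CCNA2, CDC20 and ESPL1 to be tested, and edgeR called 0 of 3 in 3DF vs. 2DF (3.78% of all genes were called in either direction), in 3DF_50 vs. 2DF (4.45%) and in 3DF vs. 3DF_50 (0.452%), with 0 of 3 at an unadjusted p under 0.05. DESeq2 and limma also called 0. From 2DF to 3DF the changes on the log2 scale were 0.28 for CCNA2 (SE 0.31), -0.34 for CDC20 (SE 0.48) and -0.38 for ESPL1 (SE 0.28). For 3DF vs. 3DF_50 they were 0.26 (SE 0.30), 0.73 (SE 0.50) and -0.45 (SE 0.26). The remaining 7 genes had at most 17 reads in any fibrillar library and were kept out by the filter. Either without the filter or with all 5 conditions in 1 fit, all 10 were tested in these 3 comparisons and 0 were called.

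The coated conditions did not differ by a call either. In 2DC vs. 2DC_L edgeR called 0 of 10 genes (0.265% of all genes were called in either direction), with 0 of 10 at an unadjusted p under 0.05, and DESeq2 and limma called 0. Log2 fold changes ran from -0.48 (SE 0.74) for CCNB2 to 0.08 (SE 0.78) for CDK1, and the SE exceeded the difference for each of the 10 genes. In every gene the mean levels of both coated conditions lay above those of all fibrillar conditions. No difference within the coated or within the fibrillar conditions was called, but most of the 10 genes had too few reads for the filtered tests within fibrillar collagen. Some differences between a coated and a fibrillar condition were not called either, such as that of CCNA2 in 3DF vs. 2DC.

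The largest differences within a condition were between the 2DC libraries. Summed over the 10 genes, 2DC replicates 1, 2 and 3 held 16.4, 50.7 and 125 CPM, and 2DC_L replicates 1, 2 and 3 held 48.6, 57.0 and 102 CPM. The 9 fibrillar libraries held between 6.75 and 9.82 CPM. Even the lowest coated library thus lay above the highest fibrillar one in the sum, while the sums spread over a far wider range in the coated libraries. The fibrillar sums came mostly from CCNA2 and ESPL1, with means of 3.55 and 2.66 CPM over the 9 libraries. Genes with few reads varied more there, such as CCNB1, 13.4-fold between libraries of 3DF.

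The 10 genes moved together across these libraries. All were lowest in 2DC replicate 1, and 7 were highest in 2DC replicate 3, while CCNB1, CCNB2 and CDC20 were highest in 2DC_L replicate 3. In 2DC replicate 3 all 10 were at least 2-fold above replicate 1, as were 4.84% of all genes tested, with a median of 9.0-fold and a range from 3.16-fold for CCNA2 to 21.3-fold for CCNB1. The median over all genes was 0.988-fold. Replicate 2 was at least 2-fold above replicate 1 for 7 of 10 genes (3.18% of all genes) and at least 2-fold below replicate 3 for 7 of 10 (3.28%). In 2DC_L, replicate 3 was at least 2-fold above replicate 1 for 6 of 10 genes (3.94% of all genes). These are single libraries, so the folds carry no test.

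The first part of each library name, such as E2 or E3, is shared by some libraries of different conditions, and the labels do not say what it stands for. The pair of coated libraries with prefix E2 differed in these genes, 2DC_L replicate 1 being at least 2-fold above 2DC replicate 1 for 8 of 10 genes (2.84% of all genes), with a median of 3.72-fold. The pair with prefix E3 did not, with 0 of 10 genes at 2-fold (2.20% of all genes) and a median of 1.08-fold. The other coated library of its prefix was thus less low than 2DC replicate 1. Still, 2DC_L replicate 1 had the lowest sum of the remaining coated libraries, at 48.6 CPM over the 10 genes. The pair also differs in the digestion before lysis, and what sets it apart was not tested.

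**Figure D3:**
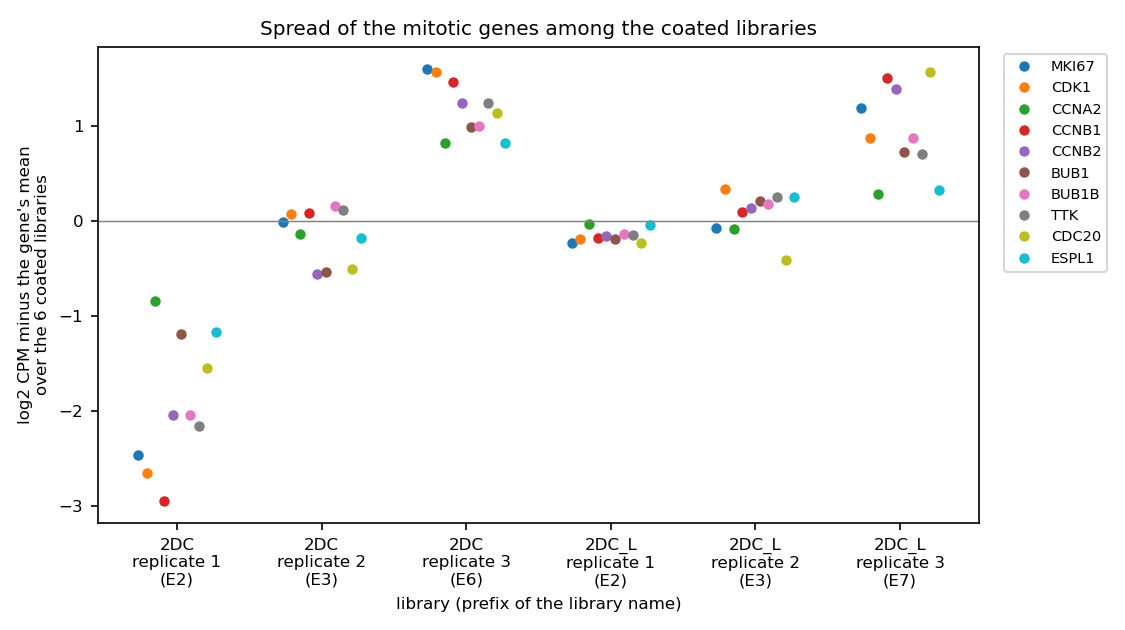
Log2 CPM of each of the 10 genes in the 6 coated libraries, minus the mean of that gene over the 6 (vertical axis), with 1 point per gene and the prefix of the library name in brackets. In 2DC replicate 1 all points lie below 0, and in 2DC replicate 3 and 2DC_L replicate 3 all lie above it.

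Pairs of coated and fibrillar libraries with the same prefix showed the difference each time. For prefix E6, 2DC replicate 3 was at least 2-fold above 3DF replicate 1 in 10 of 10 genes (10.7% of all genes), with a lowest fold of 2.81. For E7, 2DC_L replicate 3 exceeded 3DF replicate 2 at least 2-fold in 10 of 10 (8.46%) and 3DF_50 replicate 3 in 10 of 10 (10.8%). For E3, 2DC replicate 2 and 2DC_L replicate 2 both exceeded 3DF_50 replicate 1 in 10 of 10 (10.4% and 10.3%). A fit of the 8 libraries of these 3 prefixes alone, with the prefix as a block, called all 10 genes lower on fibrillar collagen (6.67% of all genes), the smallest change being -1.52 on the log2 scale for CCNA2. In all 10 genes the 4 coated libraries among these lay above the 4 fibrillar ones (15% of all genes). That fit was added after the data were seen, and it holds no 2DF library. It also leaves out both libraries of prefix E2, among them 2DC replicate 1, the lowest coated library for all 10 genes. Among all libraries, leaving out 2DC replicate 1 alone also separated the groups for all 10 genes (8.13% of all genes). The 2DF libraries carry the prefixes E5, E9 and E10, none of which a coated library has. Between 2DF and coated collagen the prefix and the condition therefore cannot be told apart directly. The only link is indirect, through 3DF_50 replicate 2, which shares prefix E5 with 2DF replicate 1.

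Among 120 further mitotic genes on 7 lists drawn up by function, 51 were called lower on fibrillar collagen and none higher, which is 42.5% beside the 5.85% of all genes. Their median log2 fold change was -0.80. The lists were drawn up with earlier results of these data known, so their counts are a description. Spindle motors and cytokinesis had the largest share, with 17 of 22 tested called lower and a median of -2.80. Examples are PRC1, which bundles the microtubules of the central spindle (3.89 ± 1.85 FPKM in the 6 coated and 0.656 ± 0.214 in the 9 fibrillar libraries, log2 fold change -2.59, SE 0.28), and RACGAP1 of the centralspindlin complex (3.54 ± 1.84 and 0.657 ± 0.113 FPKM, -2.42, SE 0.26). The minus-end motor KIFC1 and the spindle protein SPAG5 fell by 2.00 and 3.39 on the log2 scale.

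Of the mitotic kinases and the chromosomal passenger complex, 6 of 10 were called lower (median -2.62). The passenger subunit CDCA8 went from 2.40 ± 1.01 to 0.293 ± 0.139 FPKM, and TPX2, which activates Aurora A at the spindle, from 3.45 ± 1.63 to 0.762 ± 0.276 FPKM. NEK2, a centrosomal kinase, had 140 reads in 2DC and none in 2DF or 3DF. The Aurora A gene and PLK1 were tested and not called. PLK1, a kinase that drives mitotic entry and was picked out with its values known, had 2.63 ± 0.666 FPKM on coated and 2.05 ± 0.332 on fibrillar collagen (log2 fold change -0.35, SE 0.14, edgeR adjusted p = 0.0564).

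Among the partners and switches of the cyclin-dependent kinases, 6 of 11 were called lower (median -1.08). CKS2, a small subunit that binds CDK1, fell from 6.37 ± 3.82 to 0.963 ± 0.419 FPKM (log2 fold change -2.80, SE 0.36), and its paralog CKS1B fell less, from 15.8 ± 2.50 to 7.16 ± 0.975 FPKM (-1.14, SE 0.12). CDC25B, a phosphatase that activates CDK1, fell by 1.08 on the log2 scale, and CCNF, which encodes cyclin F, by 2.33. A comparable range was seen in the kinetochore and spindle checkpoint, where 14 of 26 were called lower (median -1.37). KNTC1 and ZWILCH, subunits of the complex that brings dynein to the kinetochore, fell by 3.07 and 2.86, while DSN1 of the outer kinetochore fell by 2.08.

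Several direct partners of the 10 genes were not called in fibrillar vs. coated, and these were singled out after their values were seen. BUB3, which binds BUB1 and BUBR1, had 24.2 ± 1.04 FPKM on coated and 26.2 ± 3.01 FPKM on fibrillar collagen (log2 fold change 0.12, SE 0.06, edgeR adjusted p = 0.141). MAD2L1, which inhibits CDC20 together with BUBR1, went from 4.72 ± 1.58 to 2.44 ± 0.848 FPKM, just short of the fold required (-0.97, SE 0.22, edgeR adjusted p = 0.00190), and it was called lower in 2DF vs. 2DC (-1.41, SE 0.40, edgeR adjusted p = 0.0458) and in 2DF vs. 2DC_L (-1.27, SE 0.28, edgeR adjusted p = 0.00951). PTTG1, or securin, the inhibitor of separase, had 6.63 ± 0.482 and 5.62 ± 1.14 FPKM (-0.24, SE 0.13, edgeR adjusted p = 0.159).

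Of the anaphase-promoting complex that CDC20 activates, 1 of 14 genes was called, with a median of -0.03. The called gene was UBE2C, the ubiquitin-conjugating enzyme that works with the complex, at 4.82 ± 3.57 FPKM on coated and 0.354 ± 0.383 on fibrillar collagen (log2 fold change -4.40, SE 0.54). UBE2C also differed within fibrillar collagen, being lower in 3DF than in 2DF (-2.63, SE 0.63, edgeR adjusted p = 0.0351), as was PKMYT1, a kinase that inhibits CDK1 (-1.87, SE 0.39, edgeR adjusted p = 0.0208). They were the 2 genes called of the 94 on the lists tested in 3DF vs. 2DF. That is a share of 2.13%, beside 3.78% of all genes called there. Summed over the 3 libraries of 2DF, 3DF and 3DF_50, UBE2C had 35, 7 and 4 reads and PKMYT1 181, 63 and 93. In 3DF_50 vs. 2DF, 0 of the 93 listed genes tested were called, beside 4.45% of all genes.

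Cohesin, the inhibitors of separase and condensin gave 5 of 21 (median -0.37). Those called include TOP2A, the topoisomerase that untangles sister chromatids (3.94 ± 2.50 and 0.257 ± 0.0944 FPKM), and the condensin subunits NCAPH and NCAPG2 (log2 fold changes -4.05 and -1.37). The condensin core SMC2, at -0.99 (SE 0.19), was not. Among 16 regulators of G2 and M transcription 2 were called, FOXM1 (4.17 ± 1.46 and 1.19 ± 0.265 FPKM, -1.79, SE 0.20) and MYBL2 (1.64 ± 1.00 and 0.0204 ± 0.0219 FPKM), the genes of FOXM1 and B-Myb, while the list as a whole had a median of 0.09.

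**Figure D4:**
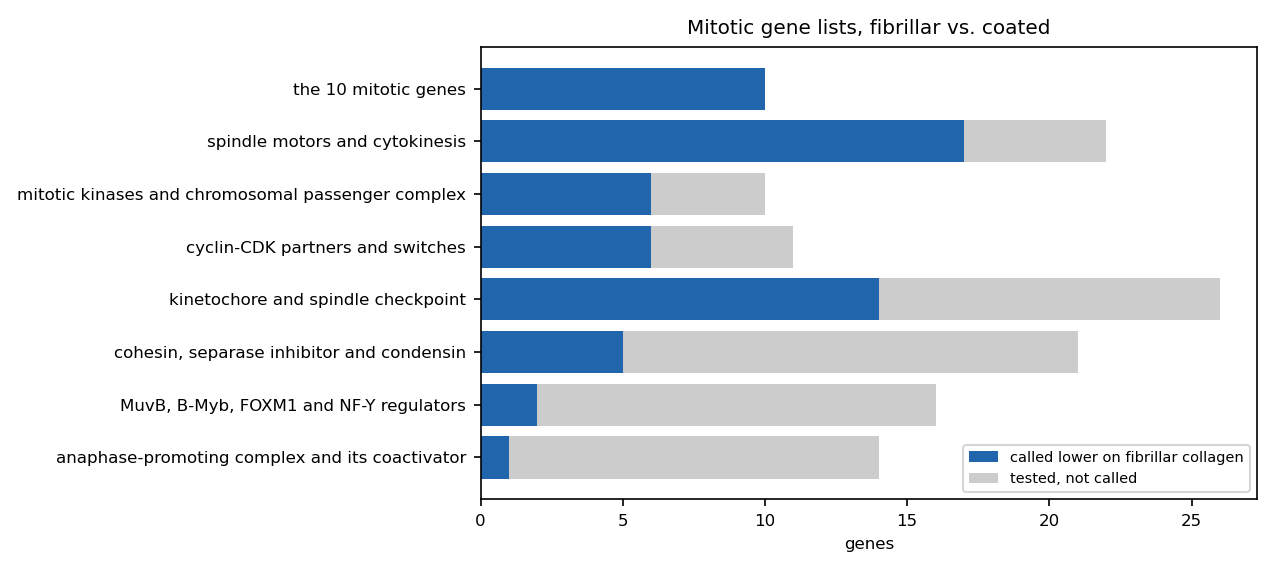
Number of genes (horizontal axis) of the 10 mitotic genes and of the 7 lists that were called lower on fibrillar than on coated collagen (blue) or tested and not called (grey), in the model of all 15 libraries. The called share runs from 10 of 10 and 17 of 22 at the top to 1 of 14 in the anaphase-promoting complex.

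In the separate comparisons with 2DC, 33 of 112 further mitotic genes were called lower in 3DF (29.5%, beside 4.32% of all genes) and 32 of 108 in 2DF (29.6%, beside 2.93%), with none higher in either. Both counts rested on few libraries, at 13 without 3DF replicate 3 and 53 without 2DC replicate 1 in the first, and at 6 without 2DF replicate 1 and 54 without 2DC replicate 1 in the second. Leaving out 3DF replicate 2 or 2DC replicate 3 gave 20 and 21 in 3DF vs. 2DC. In 2DF vs. 2DC the counts were 16 without 2DC replicate 2 and 21 without 2DC replicate 3. They were 9 without 2DF replicate 2 and 18 without 2DF replicate 3. In 3DF vs. 2DC_L, 51 of 120 were called lower (42.5%, beside 5.98% of all genes). There 1 gene of the kinetochore and spindle checkpoint was called higher, beside 575 of all 13551 genes tested.

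The genes whose pattern over the 15 libraries was most like that of the 10 were ARHGAP11A, SHCBP1, CENPF, STIL and ANLN, out of 10506 candidates. Likeness was the Pearson correlation of log2(CPM + 1) with the mean of the 10 standardized genes, and it was 0.9938, 0.9936, 0.9935, 0.9915 and 0.9912. ARHGAP11A had 0.955 ± 0.744 FPKM on coated and 0.0252 ± 0.0140 on fibrillar collagen. CENPF, a kinetochore protein, had 0.948 ± 0.739 FPKM on coated and 0.000503 ± 0.00151 on fibrillar collagen, and ANLN, a scaffold of the contractile ring, had 1.83 ± 1.26 and 0.101 ± 0.0443 FPKM. STIL, a protein of centriole duplication, was less abundant, with 0.447 ± 0.246 and 0.0464 ± 0.0181 FPKM. The libraries of a condition share their culture and the coated and fibrillar groups lie far apart, so these values describe a likeness and carry no test.

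Markers of other cells that such a culture could hold were summed in each library. The epithelial markers (9 of 11 in the table) summed to 0.361 to 1.77 FPKM in coated libraries and 0.415 to 14.8 FPKM in fibrillar ones. In 3DF_50 replicates 1 and 2 they were at the coated level, 0.415 and 0.430 FPKM, with mitotic sums of 7.89 and 9.76 CPM that lay in the range of the other fibrillar libraries. Among the coated libraries the epithelial sum was lowest in 2DC replicate 1 (0.361 FPKM) and highest in 2DC replicate 3 (1.43) and 2DC_L replicate 3 (1.77), as was the sum of the 10 genes, and its part in their spread was not tested. Endothelial markers (5 of 5) summed to 181 to 226 FPKM on coated and 128 to 196 on fibrillar collagen, immune markers (6 of 7) to 2.43 to 5.57 and 2.77 to 8.35, and vascular and Schwann cell markers (7 of 7) to 33.3 to 64.8 and 50.5 to 121. Those of myofibroblasts (3 of 4), the contractile cells of wound repair, summed to 3.07 to 10.3 FPKM on coated and 0.332 to 4.06 on fibrillar collagen. No marker in the table was at 0 in all libraries, and the part of any of these in the fall of the 10 genes was not tested.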

How the data were processed

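Total RNA of 15 cultures was sequenced in bulk. The authors aligned the reads to oryCun2 with HISAT2 2.0.5 and counted them with featureCounts 1.5.0-p3, and they deposited whole-number counts per gene without normalization, together with FPKM, which divides the counts by gene length and library size. Whether counting used strand is not given in the sources used here. Between 14626982 and 31804255 reads were counted per library, of which the 10 genes took 465 to 2693 in coated and 128 to 214 in fibrillar libraries.

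The tests, run in R 4.3.3 on the whole count table, were two-sided and used the quasi-likelihood F statistic of edgeR 4.0.16 with TMM scaling, after filterByExpr at a minimum count of 10. Each pair of conditions was fitted alone, and fibrillar vs. coated was a contrast in a fit of all 15 libraries, with 14036 genes tested. P-values were adjusted by Benjamini-Hochberg over all genes tested. The SE is the log2 fold change divided by the square root of F. Levels are mean FPKM ± SD. CPM uses TMM library sizes. Scripts were tested on simulated data. Groups came from the library labels.

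The 10 genes, the lists, the markers and the tests were chosen with earlier results of these data known. Named list genes are those called in 3DF vs. 2DC or 2DF vs. 2DC, at most 4 per list by their level in 2DC, and the genes most alike had at least 1 CPM in coated libraries. Of 127 listed genes 123 are in the table. Alternatives were DESeq2 1.42.0, its size factors in edgeR, library size only, other filters, all conditions in the fit, blocks for replicate number and library prefix, limma 3.58.1 on FPKM with 1 or 0.1 added before taking log2, no limit on the fold change, and each library left out. Python 3.11.15 drew the figures. No genome of this build was used, so no sequences are given.

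Replicate numbers were checked for pairing by the correlation of same-numbered deviations from the condition means. It was over 0.1 in every pair only for 3DF_50 vs. 2DC_L, at 0.166, 0.104 and 0.287. No columns of values were left unused.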

Additional observations from a re-analysis of the deposited data

How the results depend on the processing

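Each of the 10 genes, where tested, was lower on fibrillar collagen under every alternative run in each comparison with a coated condition. Counts of calls moved more. With limma on log2(FPKM + 1), which shrinks the change of low genes, the genes called were 0 in 3DF vs. 2DC, 0 in 2DF vs. 2DC, 4 in 3DF_50 vs. 2DC, 6 in 3DF vs. 2DC_L, and 7 each in 2DF vs. 2DC_L, 3DF_50 vs. 2DC_L and fibrillar vs. coated, and the further mitotic genes called were 7 and 3 in the first 2. Without the filter 10 were called in 2DF vs. 2DC. Leaving out single libraries gave 4 to 10 in 3DF vs. 2DC, 0 to 10 in 2DF vs. 2DC and 5 to 10 in 3DF_50 vs. 2DC, and for the further genes 13 to 53 in 3DF vs. 2DC and 6 to 54 in 2DF vs. 2DC.

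With the library prefix as a block over all 5 conditions, 0 were called in 2DF vs. 2DC and 0 in 2DF vs. 2DC_L, and the further genes called were 51 in 3DF vs. 2DC and 0 in 2DF vs. 2DC. Fibrillar vs. coated then had 8 calls, with MKI67 and CDK1 at an adjusted p of 1. The fitted log2 fold changes of the lost calls stayed as large, apart from CCNA2 in 2DF vs. 2DC at -1.24 beside -1.44. The cause was not tested, and the prefixes E9 and E10 hold 2DF libraries only. The replicate numbers met the criterion for pairing only in 3DF_50 vs. 2DC_L, although replicates 1 and 2 of 2DC and 2DC_L also share prefixes. With the replicate number as a block the counts were 9 in 3DF vs. 2DC, 6 in 2DF vs. 2DC, and unchanged in the other comparisons, while the log2 fold changes in 2DC vs. 2DC_L were negative for 10 of 10 genes beside 7 without it.

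Signs turned only in differences that were not called. In 2DC vs. 2DC_L the log2 fold changes of MKI67, CDK1 and CCNA2 were -0.41, -0.45 and -0.11 with the replicate block, -0.96, -1.18 and -0.48 with the prefix block, -0.12, -0.32 and -0.08 with limma on log2(FPKM + 1) and -0.45, -0.61 and -0.11 on log2(FPKM + 0.1). TTK was at 0.02 with library size only. Without single libraries the ranges were -1.23 to 0.62 for MKI67, -1.15 to 0.63 for CDK1, -0.52 to 0.35 for CCNA2, -1.45 to 0.41 for CCNB1, -1.74 to 0.11 for CCNB2, -1.12 to 0.14 for BUB1, -0.94 to 0.29 for BUB1B, -0.95 to 0.49 for TTK, -1.51 to 0.42 for CDC20 and -0.80 to 0.22 for ESPL1. CCNA2 in 3DF_50 vs. 2DF was at 0.23 with library size only, 0.00 with the replicate block, 0.17 with the prefix block and -0.10 to 0.10 without single libraries, where ESPL1 ran from -0.04 to 0.11. With the prefix block CCNA2 was at -0.25 in 3DF vs. 2DF and -0.42 in 3DF vs. 3DF_50.

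With scaling by library size only, all genes tested had a median log2 change of 0.187 in 3DF vs. 2DC, 0.365 in 3DF_50 vs. 2DC and 0.225 in fibrillar vs. coated, beside 0.0123, 0.0118 and 0.0184 with TMM, and 8, 8 and 10 of the 10 genes were called. The same scaling called 4 in 2DF vs. 2DC. Within fibrillar collagen 7 of the 10 genes had too few reads to pass the filter.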
